A study of Mus musculus with 98 samples.

Results

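Hepatic stellate cells are the vitamin A storing pericytes of the liver sinusoid, and 8 mouse genes known from these cells were followed in livers of mice that carried transplanted hepatocytes: Acta2, Des, Pdgfrb, Lrat, Timp1, Reln, Hgf and Lox. They were taken as the mouse rows with these symbols in a table of raw counts per gene, where each symbol matched 1 of 19689 mouse rows. The table also holds 17729 human rows. All 8 were counted in every liver, with no value under 13 counts, and all 8 passed the filter on low counts.

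A quiescent stellate cell keeps retinyl esters in lipid droplets, and Lrat makes these esters from retinol. After liver injury the cell can turn into a contractile, matrix-making myofibroblast. Platelet-derived growth factor drives its division through Pdgfrb, Acta2 and Des build its cytoskeleton, Lox cross-links the collagen it lays down, and Timp1 slows the breakdown of that collagen. Stellate cells are also a known source of Hgf, the growth factor that acts on hepatocytes through the receptor Met, and of Reln, a large secreted glycoprotein best known from the brain.

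The livers came from 10-week-old male mice of the FRGN strain, which lacks Fah, Rag2 and Il2rg and has a non-obese diabetic background. Without Fah, an enzyme of tyrosine breakdown, host hepatocytes are lost unless the drug NTBC (nitisinone) is given, and transplanted hepatocytes can take their place. In the Hu arm (15 livers) human hepatocytes had been injected into the spleen, in the Mu arm (12 livers) murine ones. Both arms went through the same cycles of NTBC at 8 mg/l and received the same drinking water additives, sulfamethoxazole at 640 and trimethoprim at 128 µg/ml with 3% dextrose. Livers were taken at zeitgeber time (ZT, hours after lights on) 2, 6, 10, 14, 18 and 22, with 2 or 3 Hu and 2 Mu livers at each time. The series, of 98 samples in all, asks what part hepatocyte clocks play in daily timing. The cells other than hepatocytes are those of the mouse host in both arms, so the mouse rows of Hu livers hold host RNA without that of the graft, whereas the mouse rows of Mu livers hold graft hepatocytes as well. The labels number the replicates without saying that each library is a separate mouse, so p-values measure the spread between these libraries.

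The share of counts in human rows was 15.86 to 93.07% in Hu livers, with a median of 58.7% (95% Wilson intervals of the extremes 15.86 to 15.87% and 93.07 to 93.07%, counting error only). In 11 of the 15 it lay under 70%, the repopulation that the labels give as the minimum for selection, although a share of RNA need not equal a share of cells. Mu livers held 0.00592 to 0.0204%, which is the background of human rows in mouse RNA. The reverse background, human reads counted in mouse rows, was not tested. Mouse rows held 7.70 to 87.9 M counts (mega) in Hu and 97.1 to 118.3 M in Mu livers. Mouse Fah, deleted in the host but present in the murine graft, averaged 547 CPM (counts of a gene per M counts in mouse rows) in Mu and 21.3 CPM in Hu livers, which checks the labels of the arms. The other genes deleted in the strain were also counted: Rag2 averaged 1.5 CPM in Hu and 0.231 in Mu, with all 15 Hu livers above every Mu liver, and Il2rg 3.44 and 1.78. Whether these reads lie outside the deleted parts was not tested. Mouse hepatocyte transcripts remained in Hu livers: 9 of 10 hepatocyte markers were lower there and 0 higher.

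Because the mouse part of a Hu liver shrinks as the human part grows, each level is given on 2 scales. The mouse-row CPM takes the total of the mouse rows as the library, and the all-row level, in the same unit, takes the total of mouse and human rows. A gene of host cells that kept its share of the whole liver's RNA would have the same all-row level in both arms and a higher mouse-row CPM in Hu. In bulk tissue, fewer cells of a type and less RNA per cell cannot be told apart on either scale.

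RefSeq promoter windows (build GRCm38.p6) were matched for 6 of the 8 genes, and the 250 bases before the start were searched on both strands for 2 motifs that bear on these genes. The CArG box is the site of serum response factor, which drives contractile genes such as Acta2, and the E-box CACGTG is a site that clock transcription factors can bind. No window held a strict CArG box, in which the 6 bases between CC and GG are all A or T, and 1.47% of 32851 mouse windows hold one. A CArG-like sequence, with 1 C or G allowed among those 6 bases, was found in Acta2, at 2 places, and in Lrat, and in 8.59% of all windows. The E-box was found in Reln and in 6.02% of all windows. The windows of Lrat and Reln are shown because they carry these letters upstream of the best-expressed genes of the group, the first at chr3:82903975-82904224 and the second at chr5:22344706-22344955, both on the minus strand. Capitals mark the CArG-like sequence in Lrat, whose first base lies 223 bases before the start, and the E-box in Reln, 71 bases before the start.
Lrat: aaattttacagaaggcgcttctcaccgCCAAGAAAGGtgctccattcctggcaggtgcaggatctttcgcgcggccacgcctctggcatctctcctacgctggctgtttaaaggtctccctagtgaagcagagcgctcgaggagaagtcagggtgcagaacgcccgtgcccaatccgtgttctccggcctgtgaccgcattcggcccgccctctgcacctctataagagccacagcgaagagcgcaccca
Reln: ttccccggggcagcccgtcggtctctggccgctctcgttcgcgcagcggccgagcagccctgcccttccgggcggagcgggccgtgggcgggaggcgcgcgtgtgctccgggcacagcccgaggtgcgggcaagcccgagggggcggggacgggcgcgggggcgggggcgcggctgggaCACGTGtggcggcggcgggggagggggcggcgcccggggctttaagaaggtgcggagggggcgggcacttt

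In Acta2 only the elements themselves are shown, since a GENCODE transcript begins further upstream and its first exon covers them. Both lie on the minus strand, at chr19:34255448-34255457 and chr19:34255398-34255407, with first bases 84 and 34 bases before the RefSeq start.
Acta2 element 1: CCCTATATGG
Acta2 element 2: CCTTGTTTGG

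Per kilobase of exon, which allows genes to be set side by side, Lrat and Reln were the best expressed of the 8. Their median mouse-row CPM per kilobase was 27.1 and 24.7 in Hu livers and 5.59 and 4.81 in Mu livers. Pdgfrb followed with 14.1 in Hu and 2.85 in Mu, and Hgf with 9.62 and 1.36. Acta2 stood at 4.46 and 1.79, Des at 2.61 and 1.09, Timp1 at 1.67 and 0.350, and Lox was lowest in both arms with 0.834 and 0.0863. The order was the same in both arms, except that Hgf stood below Acta2 in Mu livers, and neighbours in this order overlapped over livers in each arm.

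All 8 genes were higher in the mouse rows of Hu livers than in those of Mu livers. This was tested with edgeR's quasi-likelihood test with terms for time of day, with TMM scaling and p-values adjusted by Benjamini-Hochberg over all 14977 mouse genes tested. The background is large, since 42.5% of all genes were higher and 37% lower by the same rule. The median log2 difference was 1.91 over the 8 genes and 0.07 over all genes tested. The printed CPM are without TMM, so folds and log2 differences from this fit are not the ratios of those CPM. Without TMM all 8 genes were also higher, but the median over all genes was then 0.74 and 12814 genes were called in either direction. How many of those were higher was not counted, so the 8 genes have no background of their own on this scale. On all-row levels 5 of the 8 (Pdgfrb, Lrat, Reln, Hgf and Lox) were higher in Hu, where the background was 16.9% higher and 60.9% lower. There the median was 0.99 over the 8 genes and -0.70 over all genes. The all-row fit was without TMM, so the 2 scales differ in TMM as well as in the library.

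**Figure D1:**
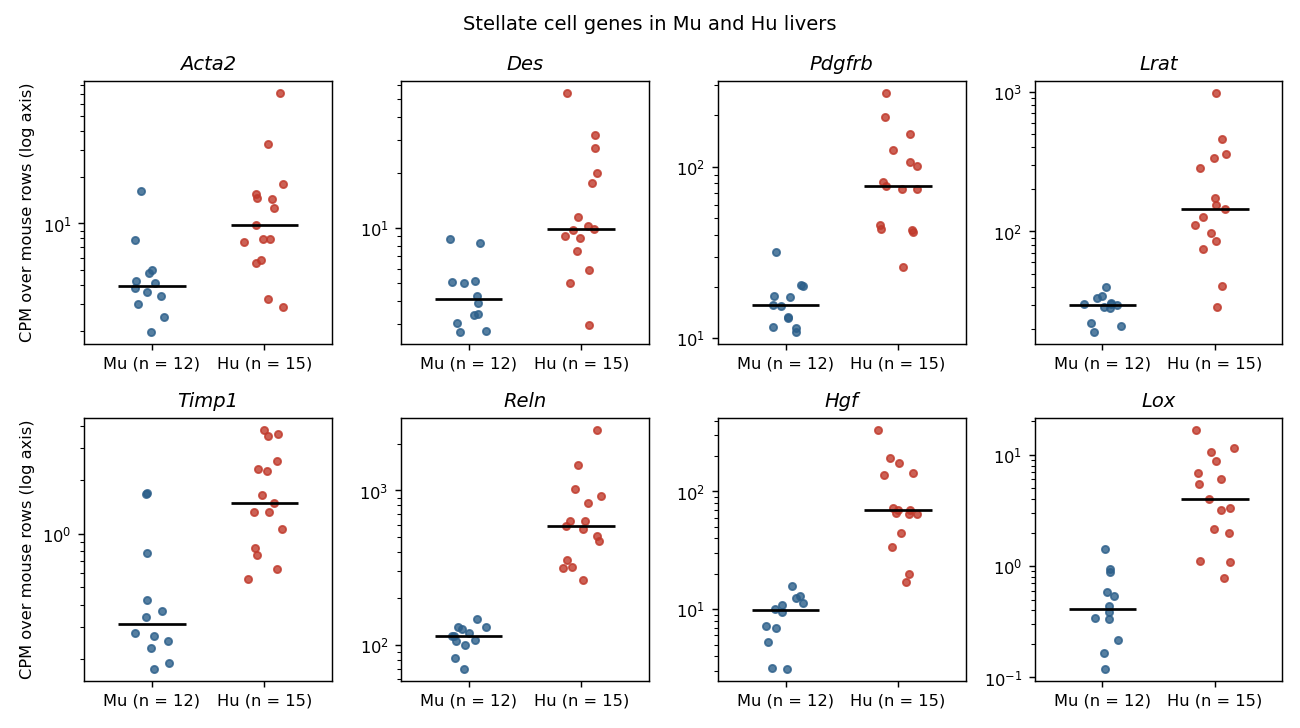
Mouse-row CPM of the 8 genes (log axis) in 12 Mu and 15 Hu livers, 1 point per liver with a line at the median. For Reln and Hgf all 15 Hu livers lie above all 12 Mu livers, as for 26.2% of all genes tested. For Acta2 only 3 Hu livers lie above every Mu liver.

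Lrat (chromosome 3, 82892579 to 82903973, minus strand, GRCm38) had a lowest, median and highest mouse-row CPM of 28.7, 145 and 979 in Hu livers. In Mu livers these were 19, 29.9 and 40.2. Of the 15 Hu livers, 14 lay above every Mu liver, and the exception was a liver at ZT 6 with 24.96% human counts. Lrat was 4.43-fold higher in Hu, a log2 difference of 2.15 ± 0.34 (SE; adjusted p = 3.77e-06). The all-row level was 21.5 to 120.4 in Hu, with a median of 55.0, against the same 19 to 40.2 in Mu, and 13 Hu livers lay above every Mu liver. On that scale the log2 difference was 1.06 (adjusted p = 4.48e-05).

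Other genes of retinoid storage and signalling moved in both directions. Of 9 tested, 3 were higher and 5 lower in Hu on mouse rows, and 0 were higher and 6 lower on all rows. Among the higher were Cyp26b1, which breaks down retinoic acid (log2 difference 1.6 ± 0.37, adjusted p = 3.68e-04), and Rarb, a retinoic acid receptor (0.81 ± 0.19, adjusted p = 4.81e-04). On all rows Rarb stood at -0.12 (adjusted p = 0.406). Among the lower were Rbp4, the retinol carrier that hepatocytes secrete, at -1.33 ± 0.22, and Dhrs3, a retinaldehyde reductase, at -0.80 ± 0.08. Both are mouse rows, and their human counterparts in Hu livers were not read. The call of Dhrs3 depended on the scaling, since it was -0.10 without TMM (adjusted p = 0.353).

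Des (chromosome 1, 75360329 to 75368579, plus strand), the muscle-type intermediate filament by which rodent stellate cells are often recognised, had a mouse-row CPM of 2.96, 9.80 and 54.2 (lowest, median, highest) in Hu livers. In Mu livers it had 2.70, 4.10 and 8.72, and 11 of the 15 Hu livers lay above every Mu liver. Des was 2.00-fold higher in Hu, a log2 difference of 1.0 ± 0.27 (SE; adjusted p = 0.00202). On all rows the arms covered one another, with 2.22 to 8.29 in Hu and 2.70 to 8.72 in Mu, and the log2 difference was -0.01 ± 0.17 (adjusted p = 0.972). The exons of Des share 5.86% of their bases with an antisense gene, and whether the counting used strand is not given in the sources used here.

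Of 4 other intermediate filament genes, 3 were higher in Hu on mouse rows and 2 on all rows. Synm, which encodes a filament partner of desmin, differed by 1.79 ± 0.20 (adjusted p = 1.80e-08), and Nes, which encodes nestin, by 1.69 ± 0.30 (adjusted p = 1.92e-05). Both were also higher on all rows.

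Acta2 (chromosome 19, 34241090 to 34255590, minus strand), smooth muscle actin and the usual sign of an activated stellate cell, had a mouse-row CPM of 2.87, 9.80 and 70.9 in Hu livers. In Mu livers it had 1.95, 3.94 and 16.3, the highest being a liver at ZT 2 that lay above 12 of the 15 Hu livers. The log2 difference was 0.89 ± 0.34 (SE; adjusted p = 0.0189), the smallest of the 8. Without the Hu liver of 93.07% human counts (ZT 18, replicate 3), which held the Hu maximum of 70.9, it was 0.63 (adjusted p = 0.0549). On all rows Acta2 was 1.85 to 8.60 in Hu and 1.95 to 16.3 in Mu, with a log2 difference of -0.14 ± 0.24 (adjusted p = 0.600).

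Of 11 other contractile genes and serum response factor partners, 6 were higher and 0 lower in Hu on mouse rows, and 1 was higher and 5 lower on all rows. The clearest were Myh9, non-muscle myosin (log2 difference 1.30 ± 0.10, adjusted p = 6.93e-11), and Tpm1, a tropomyosin (1.15 ± 0.09, adjusted p = 9.64e-11). Myh9 was the gene that stayed higher on all rows, at 0.55 (adjusted p = 0.0239). Neither is particular to stellate cells.

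Pdgfrb (chromosome 18, 61045150 to 61085061, plus strand), the receptor through which platelet-derived growth factor acts on pericytes, had a mouse-row CPM of 26.2, 77.1 and 269 in Hu livers. In Mu livers it had 10.9, 15.6 and 31.7, and 14 of the 15 Hu livers lay above every Mu liver. Pdgfrb was 3.56-fold higher in Hu, a log2 difference of 1.83 ± 0.24 (SE; adjusted p = 2.54e-07). On all rows the levels were 14.7 to 65.6 in Hu and 10.9 to 31.7 in Mu, with 6 Hu livers above every Mu liver and a log2 difference of 0.91 ± 0.19 (adjusted p = 1.33e-04).

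Among the ligands and the sister receptor, 4 of 5 were higher in Hu and 1 was lower, on both scales. Pdgfd, a ligand of Pdgfrb, differed by 2.18 ± 0.23 (adjusted p = 8.69e-09), and Pdgfc, a ligand of the alpha receptor, by 1.17 ± 0.09 (adjusted p = 7.85e-11). Pdgfa was the lower gene, at -0.38 ± 0.11 (adjusted p = 0.00399), and its sign depended on the scaling, since it was 0.32 without TMM.

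Timp1 (chromosome X, 20870166 to 20874735, plus strand), an inhibitor of matrix metalloproteinases, was scarce, with 17 to 173 counts in any liver. Its mouse-row CPM was 0.555, 1.48 and 3.82 in Hu and 0.175, 0.311 and 1.70 in Mu livers. The Mu livers were not alike: 1 at ZT 2 (1.70) and 1 at ZT 10 (1.67) lay above 9 of the 15 Hu livers. The log2 difference was 1.16 ± 0.33 (SE; adjusted p = 0.00279). On all rows it was 0.29 ± 0.31 (adjusted p = 0.395), with 0.243 to 1.29 in Hu and 0.175 to 1.70 in Mu. Timp1 lies within an intron of Syn1 on the opposite strand and shares no exon bases with it.

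Of 9 other inhibitors and metalloproteinases tested, 8 were higher and 1 lower in Hu on mouse rows, and 5 were higher and 1 lower on all rows. Mmp12, the macrophage elastase, differed by 2.54 ± 0.36 (adjusted p = 7.82e-07), and Mmp13, an interstitial collagenase, by 2.01 ± 0.27 (adjusted p = 5.34e-07). The lower gene was Mmp19, at -0.42 ± 0.18 (adjusted p = 0.0412), which was 0.20 without TMM (adjusted p = 0.216) and did not pass without time terms (-0.40, adjusted p = 0.0759).

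Lox (chromosome 18, 52516067 to 52529867, minus strand), lysyl oxidase, had a mouse-row CPM of 0.776, 3.98 and 16.8 in Hu livers. In Mu livers it had 0.119, 0.412 and 1.43, from 13 to 152 counts, and 12 of the 15 Hu livers lay above every Mu liver. Lox was 6.43-fold higher in Hu, a log2 difference of 2.68 ± 0.42 (SE; adjusted p = 3.96e-06), with the widest error of the 8. On all rows the levels were 0.249 to 5.74 in Hu and 0.119 to 1.43 in Mu, with 8 Hu livers above every Mu liver and a log2 difference of 1.74 ± 0.37 (adjusted p = 1.29e-04).

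All 4 other genes of the lysyl oxidase family were higher in Hu on mouse rows, and 3 of them on all rows. Loxl2 differed by 2.14 ± 0.29 (adjusted p = 4.15e-07) and Loxl3 by 1.51 ± 0.23 (adjusted p = 2.64e-06). Among 12 genes of the transforming growth factor beta pathway, the main inducer of matrix genes in stellate cells, 10 were higher and 0 lower on mouse rows, and 7 were higher and 3 lower on all rows. Tgfb2, a ligand, differed by 3.12 ± 0.26 (adjusted p = 1.86e-10), and Smad3, which carries the signal to the nucleus, by 1.29 ± 0.09 (adjusted p = 1.73e-11).

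Hgf (chromosome 5, 16553495 to 16620152, plus strand) and Lox differed most of the 8, Hgf by slightly more on mouse rows and Lox on all rows, well within their errors. The Hgf mouse-row CPM was 17.2, 69.1 and 335 in Hu livers and 3.12, 9.80 and 15.6 in Mu livers. The arms did not overlap, with all Hu livers above all Mu livers, as for 26.2% of all genes tested. The log2 difference was 2.71 ± 0.34 (SE; adjusted p = 1.46e-07), a 6.55-fold higher level. On all rows 13 of 15 Hu livers still lay above every Mu liver, with 14.5 to 58.7 in Hu and 3.12 to 15.6 in Mu, and the log2 difference was 1.71 ± 0.25 (adjusted p = 1.21e-06). The exons of Hgf share 6.74% of their bases with a short transcript model on the same strand, whose reads cannot be told apart from those of Hgf here.

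The 9 genes that receive, activate or block Hgf moved in both directions: 4 were higher and 3 lower in Hu on mouse rows, and 4 were higher and 5 lower on all rows. Plat, a plasminogen activator, differed by 4.13 ± 0.44 (adjusted p = 1.24e-08), and St14, a membrane protease, by 2.80 ± 0.30 (adjusted p = 1.19e-08). Hgfac, the activator made by hepatocytes, was lower at -3.02 ± 0.32 (adjusted p = 1.28e-08), and Plg, plasminogen from hepatocytes, at -1.84 ± 0.25 (adjusted p = 3.70e-07). These values cover mouse rows alone, and the human counterparts in Hu livers were not read.

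Reln (chromosome 5, 21884454 to 22344702, minus strand) had a mouse-row CPM of 263, 587 and 2475 in Hu livers and 69.8, 114 and 146 in Mu livers, again without overlap. The log2 difference was 1.99 ± 0.22 (SE; adjusted p = 2.11e-08), a 3.97-fold higher level with the smallest error of the 8. On all rows Reln was the gene of the 8 whose arms still did not overlap, at 155.5 to 493.9 in Hu and 69.8 to 146 in Mu. The log2 difference there was 1.08 ± 0.21 (adjusted p = 3.65e-05). The liver with the fewest human counts (15.86%, ZT 2, replicate 1) had an all-row level of 268. All 15 Hu livers lay above all 12 Mu livers for 2 of the 8 genes on mouse rows, against 26.2% of all genes tested, and for 1 of 8 on all rows, against 0.487% of all genes.

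The receptors and the adaptor of reelin, Vldlr, Lrp8 and Dab1, were all higher in Hu on both scales. Lrp8 differed by 3.25 ± 0.29 (adjusted p = 8.87e-10) and Dab1 by 2.89 ± 0.28 (adjusted p = 3.12e-09), both from means under 0.4 CPM in Mu livers.

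**Figure D2:**
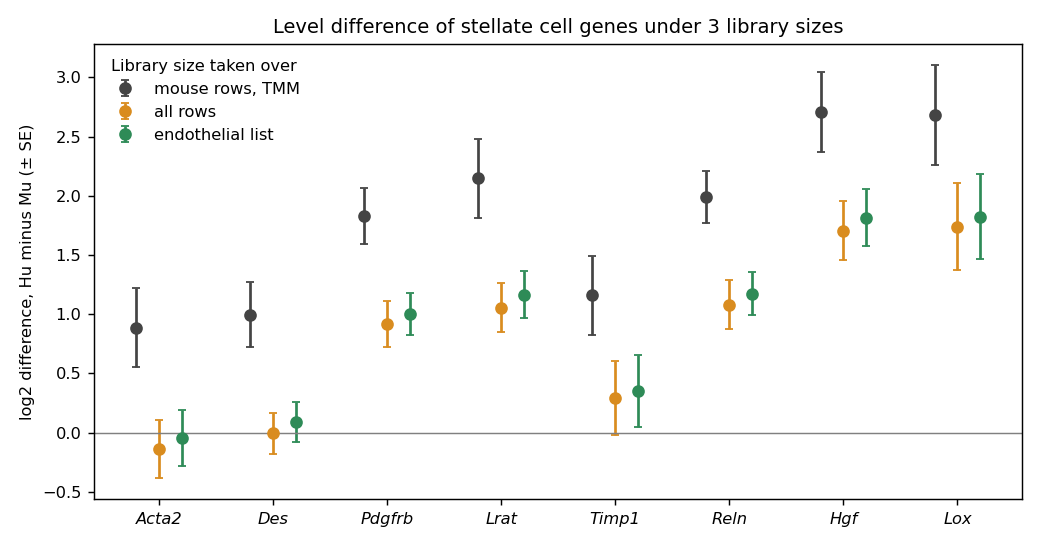
Log2 difference of each gene between Hu and Mu livers with its standard error (bars), for 3 choices of library size: mouse rows with TMM, all rows, and the counts of 10 sinusoidal endothelial genes. Hgf and Lox lie highest on each, at 2.71 and 2.68, 1.71 and 1.74, and 1.82 and 1.82, whereas Acta2, Des and Timp1 lie at -0.14, -0.01 and 0.29 on all rows.

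A further scale, chosen after the data had been seen, took the counts of 10 liver sinusoidal endothelial markers as the library size, which sets each gene against another host cell of the sinusoid. The same 5 genes were higher in Hu (background 20.3% higher and 57.4% lower), with a median log2 difference of 1.08 over the 8 genes and -0.59 over all genes. Reln differed by 1.17 ± 0.18 (adjusted p = 3.67e-06), Lrat by 1.16 ± 0.20 (adjusted p = 9.96e-06), Pdgfrb by 1.0 ± 0.18 (adjusted p = 1.88e-05) and Hgf by 1.82 ± 0.24 (adjusted p = 3.05e-07). Acta2 stood at -0.04 ± 0.24 (adjusted p = 0.867), Des at 0.09 ± 0.17 (adjusted p = 0.633) and Timp1 at 0.35 ± 0.31 (adjusted p = 0.294). Thus 5 of the 8 genes were higher in Hu on all 3 scales. The other 3 were higher only where the total of the mouse rows was the library. The endothelial scale is no independent check of the all-row scale, since the list itself covered nearly the same all-row range in both arms. The summed all-row level of the 10 markers was 396 to 531 in Hu and 441 to 523 in Mu livers.

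Marker lists of the cell types that could share these genes were read beside them. Of 15 further stellate markers, 11 were higher and 0 lower in Hu on mouse rows, and 4 were higher and 3 lower on all rows. Cygb (log2 difference 1.96 ± 0.27, adjusted p = 5.96e-07 on mouse rows) and Adamtsl2 (2.03 ± 0.31, adjusted p = 2.43e-06) were higher on both scales. The 3 lower on all rows were Angptl6 (-1.31, adjusted p = 3.30e-09), Ecm1 (-0.58, adjusted p = 0.00235) and Pth1r (-0.55, adjusted p = 4.62e-04). The summed mouse-row CPM of the 15 markers was 485 to 10022 in Hu and 521 to 677 in Mu livers. Of 13 markers of activated stellate cells or myofibroblasts, 12 were higher and 0 lower on mouse rows, and 9 were higher and 1 lower on all rows. The lower one was Fn1 (-1.02 on all rows, adjusted p = 0.0019). Fbn1, a microfibril protein, differed by 2.40 ± 0.32 (adjusted p = 3.21e-07) and Sparc, a matrix glycoprotein, by 1.53 ± 0.20 (adjusted p = 2.14e-07). The medians on all rows were -0.11 over the 15 general markers and 0.69 over the 13 markers of activation. They were set beside the 0.99 of the 8 genes as a description.

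Other mesenchymal cells also carry several of the 8 genes. Of 7 portal fibroblast markers, 7 were higher on mouse rows and 3 on all rows, with Fbln2 (2.37 ± 0.28, adjusted p = 7.96e-08) and Entpd2 (1.65 ± 0.22, adjusted p = 2.93e-07) in front, and their summed mouse-row CPM was 33.2 to 339 in Hu and 12.1 to 36.5 in Mu. Of 7 vascular smooth muscle markers tested, 3 were higher on mouse rows, among them Synpo2 (1.72 ± 0.25) and Smtn (1.27 ± 0.18). On all rows 2 were higher and 2 lower, the latter being Mylk (-0.92) and Cnn1 (-1.03). The mouse-row sums were 96.6 to 620 CPM in Hu and 81.6 to 177 CPM in Mu. Myocd, an eighth smooth muscle marker, was at 0 in some livers and was not tested. Of 5 mesothelial markers, 3 were higher on mouse rows, and 1 was higher and 2 lower on all rows, with sums of 3.69 to 46.1 in Hu and 3.69 to 13.5 CPM in Mu. The part of these cells in the levels of the 8 genes was not tested.

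Markers of unrelated host cells served as a yardstick. Of 11 Kupffer cell markers, 8 were higher on mouse rows (Csf1r 1.17 ± 0.19, Cd68 1.18 ± 0.20) but 0 were higher and 4 lower on all rows, with a median of -0.11. The 4 lower were Clec4f (-0.75), Timd4 (-0.59), Cd5l (-0.58) and Vsig4 (-0.40), of which only Vsig4 was called higher on mouse rows. Csf1r and Cd68 stood at 0.26 each on all rows, which did not pass. All 10 sinusoidal endothelial markers were higher on mouse rows (Lyve1 1.41 ± 0.16, Stab1 1.12 ± 0.17), and 1 was higher and 3 lower on all rows, with a median of -0.19. On all rows the higher gene was Lyve1 (0.60), and the lower ones were Clec4g (-0.34), Fcgr2b (-0.28) and Gpr182 (-0.26). Bile duct markers were mostly higher on both scales, with 8 of 8 higher on mouse rows (Spp1 2.19 ± 0.21, Sox9 1.20 ± 0.12) and 7 higher and 1 lower on all rows, with a median of 1.13. Hepatocyte markers are no such yardstick, since in Mu livers they come from the mouse graft as well. They had a median of -2.73 on all rows, with 10 of 10 lower, among them Cyp2e1 at -4.72 ± 0.31 and Fah at -5.31 ± 0.24 on mouse rows.

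**Figure D3:**
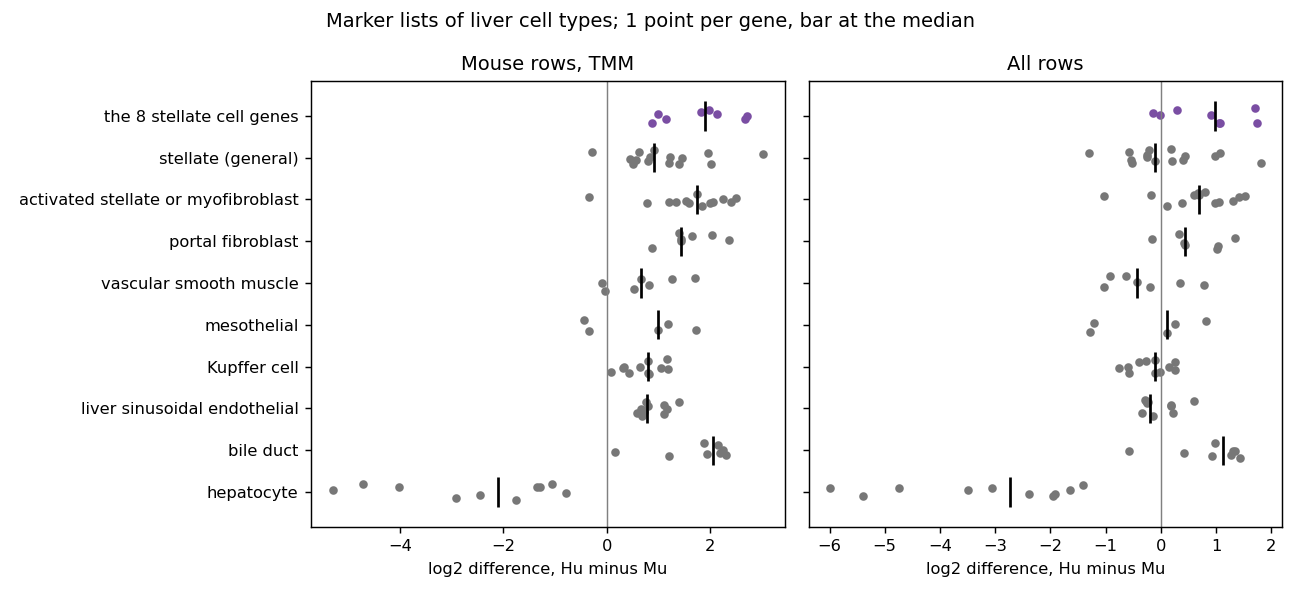
Log2 difference between Hu and Mu livers for the 8 genes and 9 marker lists, 1 point per tested gene and a bar at the median, on mouse rows (left) and all rows (right). On all rows the medians of the Kupffer and sinusoidal endothelial lists lie at -0.11 and -0.19, and those of the 8 genes and the bile duct list at 0.99 and 1.13.

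Within the 15 Hu livers the level was then set against the human share, with time terms in the same edgeR fit. On mouse rows all 8 genes rose with the share, where 22.9% of the 13879 genes tested rose and 18.8% fell. The median slope per 10 percentage points was 0.41 (log2) over the 8 genes and -0.01 over all genes. The rise was not particular to the 8 genes, since most markers of other host cells rose on mouse rows too. It was called for 15 of 15 further stellate markers (median slope 0.45) and 11 of 13 activation markers (0.45). Of the sinusoidal endothelial markers 9 of 10 rose (0.29), of the Kupffer cell markers 8 of 11 (0.22) and of the bile duct markers 6 of 8 (0.25). Among the 8 genes, Lrat rose most steeply, by 0.58 ± 0.05 (SE; adjusted p = 1.71e-05), which is 1.5-fold for each 10 points. Hgf followed with 0.48 ± 0.07 (adjusted p = 2.94e-04), Des with 0.44 ± 0.06 (adjusted p = 1.62e-04) and Acta2 with 0.43 ± 0.09 (adjusted p = 0.00294). The shallowest slopes were those of Reln, 0.28 ± 0.07 (adjusted p = 0.00883), and Timp1, 0.28 ± 0.08 (adjusted p = 0.0186). Pdgfrb had 0.33 ± 0.07 (adjusted p = 0.00354) and Lox 0.40 ± 0.14 (adjusted p = 0.0373).

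Several of these calls rested on few livers. Without the liver of 93.07% human counts, 5 of the 8 slopes passed, and those of Timp1 (0.28, adjusted p = 0.0567), Reln (0.22, adjusted p = 0.0597) and Lox (0.38, adjusted p = 0.104) did not, while the number of genes called over the whole table fell from 5792 to 3365. Lox also lost its call without any 1 of 4 other Hu livers (ZT 2 replicates 1 and 2, ZT 6 replicate 1, ZT 18 replicate 1; adjusted p = 0.0631 to 0.150), and Timp1 without ZT 2 replicate 2 or ZT 6 replicate 1 (adjusted p = 0.105 and 0.0593). Without time terms the slope of Lox was 0.19 (adjusted p = 0.227). Adding a block for the replicate number left 3 of the 8 slopes past the test (Des, Lrat and Hgf).

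On all rows 80% of all genes fell with the share and 0.582% rose. Lrat was the gene of the 8 that rose, by 0.27 ± 0.07 per 10 points (adjusted p = 0.00115). Its all-row level ran from 21.5 and 34.2 in the livers with 24.96 and 15.86% human counts to 120.4 in the liver with 73.9%, and was 67.9 in the liver with 93.07%. None of the other 7 passed in either direction, with slopes from -0.04 for Reln (adjusted p = 0.698) to 0.16 for Hgf (adjusted p = 0.108). Among the 15 further stellate markers 8 rose with the share on all rows and 0 fell, while of the 13 activation markers 1 rose and 1 fell. Against the endothelial list as library size, Lrat (0.29, adjusted p = 2.32e-04) and Des (0.16, adjusted p = 0.0287) rose, where 1.09% of all genes did and 79.7% fell.

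**Figure D4:**
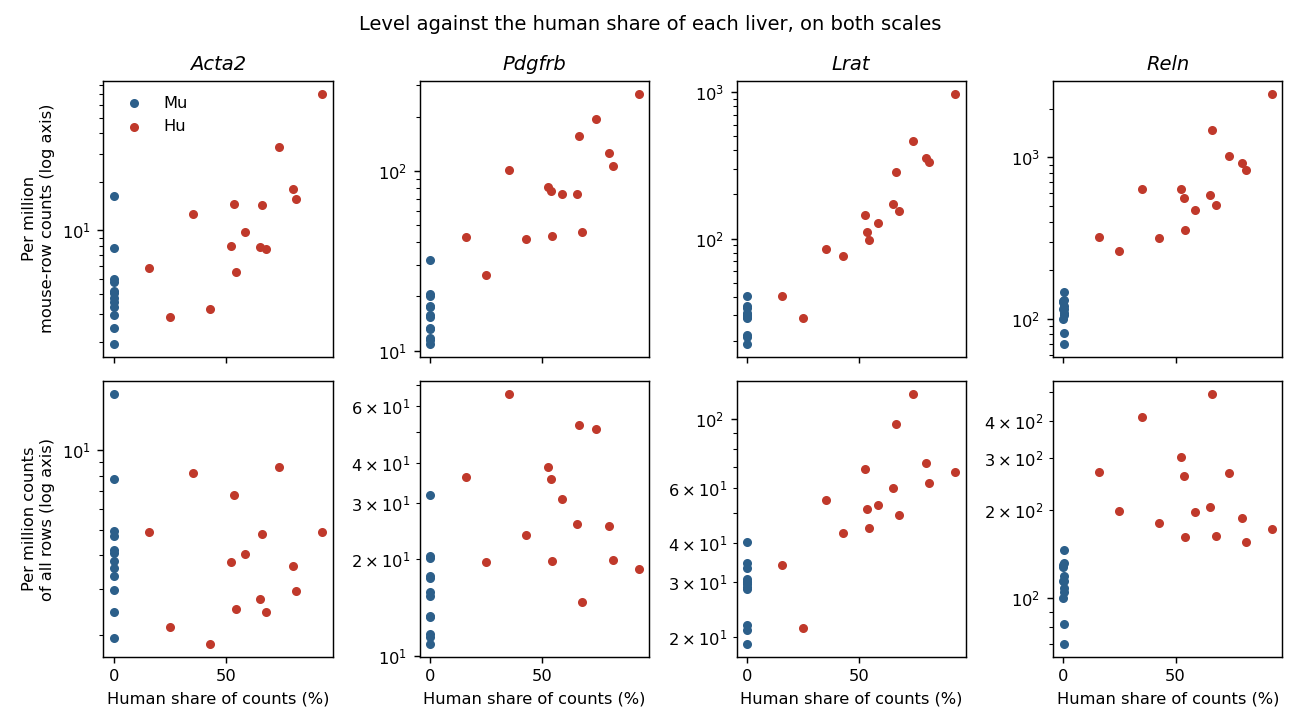
Level of 4 genes against the human share of each liver (%), as mouse-row CPM (top) and all-row level (bottom), both on log axes, with 1 point per Mu or Hu liver. Lrat rises with the share in both rows of panels, while the all-row levels of Reln lie between 155.5 and 493.9 with a slope of -0.04 per 10 points.

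The time of day was examined because the livers were sampled around the clock. None of the 8 genes had a 24 h rhythm that passed the test in Mu livers, where 17.3% of all genes did, in Hu livers (0.167% of all genes), or a rhythm that differed between the arms (1.28% of all genes). At an unadjusted p under 0.05 in edgeR, 1 gene had a rhythm in Mu (Timp1, adjusted p = 0.0838), 0 had one in Hu, and 1 differed between the arms (Des, adjusted p = 0.212). DESeq2 called Timp1 in Mu (adjusted p = 0.0359) and none of the 8 in Hu or between the arms. Of the 14977 mouse genes entered, it called 3768 in Mu, 516 in Hu and 1152 between the arms. Timp1 also passed in Mu when replicate 1 of ZT 6 (adjusted p = 0.0183) or of ZT 10 (adjusted p = 0.0440) was left out. Without replicate 2 of ZT 2 in Hu, Lrat passed in Hu (adjusted p = 0.0393) and Des between the arms (adjusted p = 0.04998).

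In Mu livers the ZT 2 samples were the highest for several genes. Mean mouse-row CPM at ZT 2 was 12 for Acta2, against 2.46 to 4.26 at the other times, 8.52 for Des, against 2.91 to 5.09, and 26.1 for Pdgfrb, against 11.3 to 18.9. Timp1 averaged 1.24 at ZT 2 and 1.01 at ZT 10, against 0.181 to 0.336 at the other times, with a wide gap between the 2 livers of each of those times. Lrat and Reln were flat in Mu, with means of 25.4 to 36.8 and 97.9 to 122.8 over the 6 times.

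In Hu livers the highest means fell at ZT 10 for Pdgfrb, Timp1, Reln and Hgf, at ZT 18 for Acta2, Des and Lrat, and at ZT 2 for Lox. Without the liver of 93.07% human counts they fell at ZT 10 for Des and Lrat and at ZT 2 for Acta2. These times do not have equal human shares: the livers of ZT 10 and ZT 14 averaged 73.8% human counts each, those of ZT 18 67.03%, and those of ZT 2, 6 and 22 averaged 41.7, 49.6 and 47.6%. The part of the share in the time courses was not tested. The ratio of Hu to Mu mean CPM was above 1 at all 6 times for each gene with all livers, but without replicate 2 of Hu it was 0.765 at ZT 2 and 0.757 at ZT 22 for Acta2 and 0.892 at ZT 2 for Des. It ranged from 5.45 at ZT 22 to 24.97 at ZT 10 for Hgf, from 3.87 at ZT 22 to 10.5 at ZT 10 for Reln, and from 1.31 at ZT 22 to 8.06 at ZT 18 for Acta2. The 8.06 rested on the liver of 93.07% human counts, without which it was 2.67.

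**Figure D5:**
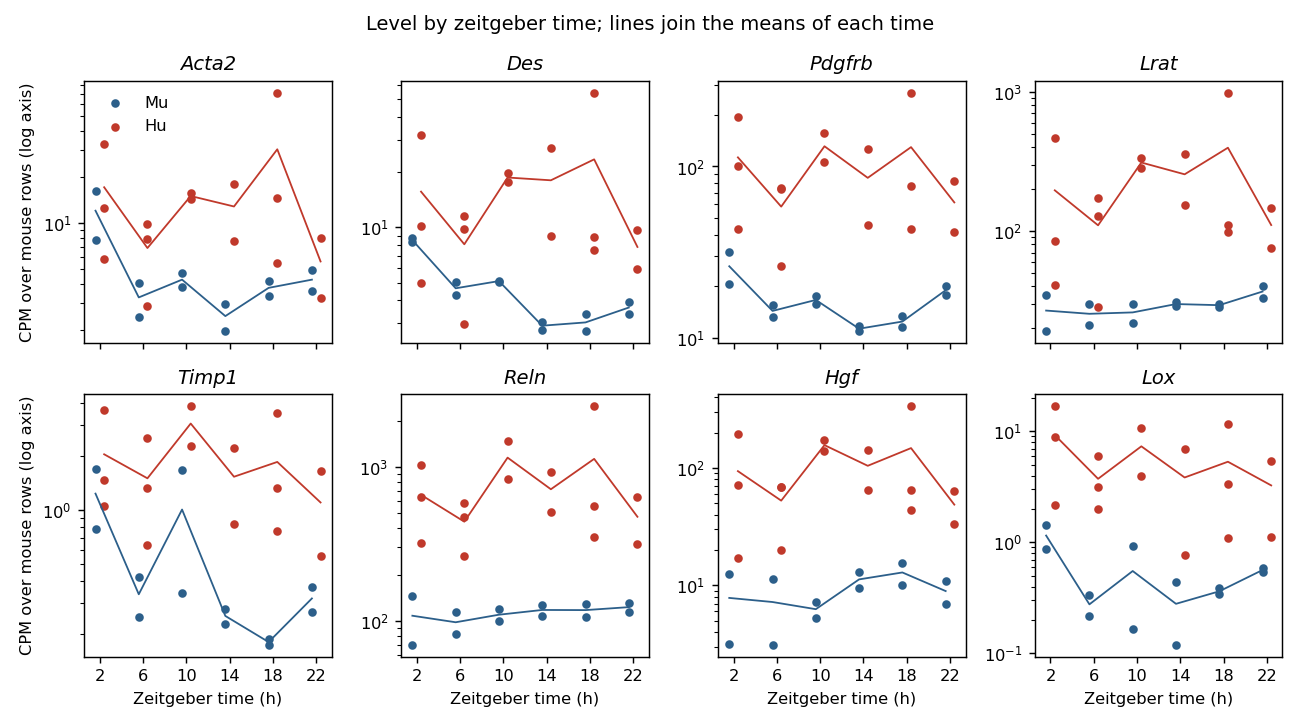
Mouse-row CPM (log axis) of the 8 genes by zeitgeber time (h), with 2 Mu and 2 or 3 Hu livers per time as points and lines through the means. The Hu points spread widely within a time, as at ZT 18 where Lrat reached 979 in 1 liver, and the Mu points of Acta2, Des and Pdgfrb are highest at ZT 2.

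Skeletal muscle of the same study, where no human cells had been placed, gives the level of these genes outside the liver in 15 Hu and 12 Mu libraries. Lrat (log2 difference 1.07 ± 0.30, adjusted p = 0.0108) and Reln (0.39 ± 0.12, adjusted p = 0.0219) were higher in Hu muscle, and Pdgfrb was lower (-0.43 ± 0.07, adjusted p = 2.07e-04), so 2 of 8 were higher and 1 of 8 lower, against 13.5% and 13.3% of 14197 genes. Lrat was scarce there, at 0.189 to 0.826 CPM in Hu and 0.0163 to 0.452 CPM in Mu. Reln stood at 4.56 to 16.9 CPM in Hu and 4.11 to 7.07 CPM in Mu, and Pdgfrb at 35.03 to 58.5 and 39.7 to 71.1 CPM. Timp1 was just outside the threshold (-0.67 ± 0.25, adjusted p = 0.0503), and it passed in 7 of 27 fits that left out 1 library. The other 4 genes did not pass, with differences from -0.26 for Acta2 (adjusted p = 0.265) to 0.45 for Hgf (adjusted p = 0.104). Des, a muscle filament, averaged 3600 CPM in Hu and 3675 CPM in Mu. Whether the liver difference exceeds the muscle difference was not tested, since the tables were normalized apart.

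Finally, for each of the 8 genes the most similar genes were sought over the 27 livers, by the Pearson correlation of log2 mouse-row CPM after subtracting the mean of each arm, among 12031 or 12032 candidates. All points share the libraries, their depth and the human share, so these values describe the livers and carry no test. Acta2 was most like Tagln (r = 0.951) and Myl9 (0.942), both smooth muscle genes. Lrat was most like Dcn (0.983), the proteoglycan decorin, and Bmp5 (0.979), and Des like Sept4 (0.965), a septin known from stellate cells, and Pcdhga9 (0.961). Lox was most like Col1a1 (0.883) and Col4a1 (0.855), both collagens, with the lowest values of the 8. Pdgfrb was most like Clmp (0.954) and Col16a1 (0.946), and Reln like Robo2 (0.965) and Tbx20 (0.958). Hgf was most like Rps6ka3 (0.954) and Peak1 (0.949), and Timp1 like S100a6 (0.922) and Tmsb10 (0.921).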

How the data were processed

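RNA sequencing counts of 27 livers (15 Hu, 12 Mu) and 27 muscle samples were used. The authors deposited raw counts per gene, whole numbers without normalization, per the file headers and values. Per the submitters' processing notes, STAR was used and the builds GRCm38, mm10, GRCh38, hg38 and hg19 are named without roles. Versions, the counting program, its strand setting and the annotation are not given in the sources used here. Groups came from the labels. The other 44 columns of samples, from brain regions, were not used.

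Symbols were matched by Ensembl identifier. Positions and exon lengths came from GENCODE annotation of GRCm38. Counts were fitted with edgeR 4.0.16 (R 4.3.3): filterByExpr by arm, TMM over mouse rows, arm, and cosine and sine terms of a 24 h period for each arm, or the human share with common time terms in Hu livers. Quasi-likelihood p-values were adjusted by Benjamini-Hochberg over all genes tested, with a threshold of 0.05, and all adjusted p-values in the text are from edgeR unless DESeq2 (1.42.0) is named. The procedure was run on simulated data in which few genes changed, balanced in direction. That cannot check the scaling where most genes differ between the arms, as here. CPM are without TMM. In the all-row fit the library size was the total of mouse and human rows, without TMM. Log2 CPM for likeness used a prior count of 2.

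Mouse-row depth was 7.70 to 87.9 M counts (mega) in Hu and 97.1 to 118.3 M in Mu livers, and 43.1 to 92.1 M in muscle. Within each group of livers or muscle samples no pair of libraries agreed within sampling noise (chi-square per gene of 41.9 or more). The genes and lists were chosen with earlier results of these data known. Genes named beside the 8 were, from each list, the 2 higher and 2 lower with the smallest p-values, and the 2 most similar to each gene with a mean log2 CPM of at least 1. Stellate, smooth muscle, Kupffer cell and sinusoidal endothelial markers lower on all rows were named as well.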

Additional observations from a re-analysis of the deposited data

How the results depend on the processing

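The alternatives were other scalings (DESeq2 size factors, no TMM, all rows), no filter on low counts, DESeq2, other time terms, other forms of the human share, the replicate number as a block, matched numbers, and each library left out; the endothelial library size was added after seeing the data. Pdgfrb, Lrat, Reln, Hgf and Lox were higher in Hu under all 11 alternatives and all 27 fits that left out 1 library, and Acta2, Des and Timp1 depended on the library size. The number of the 8 higher in Hu was 5 with all rows or the endothelial list, and 7 to 8 with 1 library left out. Genes called in either direction numbered 11692 to 11922 with 1 library left out, against 11907 in the report.

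The sign turned under all rows for the level of Acta2 (-0.14), Des (-0.0071) and Rarb (-0.12) and for the share slope of Timp1 (-0.024) and Reln (-0.040). It turned with the endothelial list for the level of Acta2 (-0.044) and Rarb (-0.019) and the slope of Timp1 (-0.00397) and Reln (-0.020), and without TMM for Pdgfa (0.32) and Mmp19 (0.20). Without TMM the median of all genes was 0.74 in place of 0.07. The cause was not tested beyond the change of library size itself.

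The labels do not say what a replicate number shares. Deviations of same-numbered Hu and Mu livers correlated at 0.0129 to 0.312 (mean 0.115), with 7 of 12 pairs over 0.1 and equal values for both pairs of a time with 2 livers per arm. Pairing was to be taken only where every pair was over 0.1, so the numbers were not used as pairs in the report; whether they mark a shared source was not tested. With the replicate number as a block, Acta2 was 0.57 higher (adjusted p = 0.0734), with blocks of equal ZT and number 0.49 (adjusted p = 0.0613), and with matched numbers only 0.65 (adjusted p = 0.0627); the block ended no other level call of the 8. It lowered the genes with a share slope from 5792 to 1490 and those of the 8 from 8 to 3 (Des, Lrat and Hgf). Blocks of equal ZT and number gave 2515 genes in muscle (3817 in the report).

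With all rows the share slope was called for 11066 genes, of which 80 rose, and for 1 of the 8. With the endothelial list it was called for 11215 genes, of which 151 rose, and for 2 of the 8. Without the 2 livers farthest in share 2631 genes and 5 of the 8 were called. With 1 liver left out these were 3365 to 6227 and 5 to 8. The gene totals count both directions, whereas every call of the 8 was a rise.

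Rhythm counts were 85 in Mu and 8605 in Hu with all rows (Lox among them, 1 of the 8), 516 in Hu with DESeq2 and 7 with matched numbers. With 1 library left out they were 1460 to 3559 in Mu and 8 to 827 in Hu, with 0 to 1 of the 8 in each. A different rhythm was found for 111 genes without TMM, 107 without the filter, 95 with matched numbers, 11 with all rows, 11 with ZT as a factor and 1152 with DESeq2, against 192 in the report, and for 38 to 1009 with 1 library left out (0 to 1 of the 8). DESeq2 called 3768 genes rhythmic in Mu, with 1 of the 8 among them, Timp1.

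In muscle 2 of the 8 were lower with DESeq2 size factors, ZT as a factor, blocks of equal ZT and number, or the DESeq2 test, Timp1 being the second, and 1 to 2 with 1 library left out. There 2 to 3 of the 8 were higher and 3071 to 4411 genes were called. Lox and Timp1 had the fewest counts of the 8, at 13 to 173 in Mu livers.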
